A study of Mus musculus with 8 samples.

Results

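Low-level N6-methyladenosine (m6A) sites of TBLC given a control siRNA were described: positions where between 0.1 and 0.3 of the reads stayed unconverted in both control (siNC) libraries. A site was taken when it was listed in both siNC libraries with a gene name, had at least 50 A+G reads in each, and had a level of at least 0.1 and under 0.3 in each. The level of a position is its unconverted A reads as a share of its A+G reads. The rule gave 8025 sites, which is 43.7% of the 18347 gene-assigned sites with that depth and 16.2% of the 49554 sites listed in both siNC libraries. They lay in 3604 of the 4827 genes that had any site of that depth (74.7%). The sites were thus chosen by their siNC levels and depth, so those values are given as a description.

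m6A is placed on adenosines of messenger RNA by a nuclear writer complex around the METTL3-METTL14 enzyme pair, in which VIRMA is a large scaffold subunit. The mark is read by proteins such as the YTH family and can be removed by FTO and ALKBH5, and it is known to affect splicing, decay and translation of transcripts in pluripotent cells. GLORI converts unmethylated adenosine so that it is sequenced as G while m6A is still sequenced as A. A low level can thus stand for a position that few copies of a transcript carry, or for adenosines that escaped conversion, and these cannot be told apart at a single site.

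There are 8 mouse libraries, 2 in each of 4 groups. TBLC kept in MYCP medium received siNC or siVirma, an siRNA that targets Virma. EPSC carried dCas13b-FTO, an RNA-guided m6A eraser, together with the guide sgCtrl or sgGata6. The labels spell out neither TBLC nor EPSC and do not say whether the libraries of a group came from separate cultures, so p-values measure the spread between these libraries only, which may be technical. Each TBLC library has its own list of called sites, whereas the EPSC table pools the libraries of each group.

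The TBLC lists held 34739 to 66350 sites with 2655963 to 4764955 A+G reads, and the pooled EPSC columns 964966 and 1044927 A+G reads over 19342 sites. The deposited gene coverage of Virma was 40.3 and 38.2 with siNC, against 24.1 and 22.8 with siVirma, a log2 difference of -0.91 ± 0.0593 (SE; limma adjusted p = 0.000403), without overlap between the groups. Pluripotency markers were listed in every TBLC library: 8 of 10 had a gene coverage in all 4, summing to 1547 and 1497 in siNC and 1717 and 1398 in siVirma. Pou5f1 (982.8 and 1006) was listed in siNC only and is not among the 8. Over whichever pluripotency markers each library listed (10 and 9 in siNC, 9 and 8 in siVirma), the sums were 4542 and 2503 against 3580 and 1398. Among fibroblast (feeder) markers, Dcn was listed in no library, and the 6 markers measured in all 4 summed to 309.5 and 288.7 in siNC and 552.3 and 444.5 in siVirma. Vim and Fn1 were listed in siNC only and are not among the 6. Over whichever markers each library listed (11 and 9 in siNC, 8 and 8 in siVirma), the sums were 986.4 and 893.4 against 609.7 and 495.8. These last sums cover different markers in each library, and a marker with no listed site adds nothing, so they show no measured fall. For 2-cell stage genes, Dux was listed in no library, and the 6 measured genes summed to 343.9 and 332.5 against 371.6 and 322.6. Over the 2-cell genes each library listed (9 and 9 in siNC, 8 and 6 in siVirma), the sums were 438.3 and 415.8 against 413.4 and 322.6.

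Most of the sites lay in the lower part of their range. The mean siNC level had a median of 0.175, with 5323 sites (66.3%) from 0.1 to under 0.2 and 2702 (33.7%) from 0.2 to under 0.3. Their A+G reads had a median of 97 in the first siNC library and 92 in the second, ranging from 50 to 11583 and from 50 to 10229. The median absolute difference between the 2 siNC levels of a site was 0.0276, and for 7815 sites (97.4%) it lay within the 95% interval of counting error. The rule kept only sites with both levels from 0.1 to under 0.3, so sites where the libraries differed more were left out. This share is therefore no measure of how well the libraries agree. The conversion rate that the authors list for each gene had a median of 0.983 at these sites and 0.979 at the other sites of the same depth. Set against the unconverted remainder of their own gene (1 minus that rate), the median site stood 9.76 times higher in the first library and 9.68 times in the second, and 99.2% stood at least 3 times higher in both. The rule asked for a level of at least 0.1, so at such conversion rates these ratios were largely set by the rule. They do not show that the sites exceed the conversion background.

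At the upper limit, the sites just inside were in Cdt1 (levels 0.2996 and 0.2991), Colgalt1 (0.269 and 0.299) and Huwe1 (0.269 and 0.299). Just outside lay sites in Tubb4b-ps1 (0.266 and 0.3), Cbr3 (0.246 and 0.3) and Rpl22 (0.234 and 0.3). At the lower limit, sites in Gm8326 (0.1 and 0.109), Stmn1 (0.147 and 0.1) and Mir17hg (0.122 and 0.1) were the last inside. The lists themselves stop at 0.1, so nothing could be read below, and 111 sites stood at exactly 0.1 in a library.

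By gene class, 7519 sites (93.7%) were in protein-coding genes, 343 in pseudogenes, 77 in long noncoding RNAs and 8 in tRNA genes. Some genes held a single low-level site and others many: 1733 genes (48.1%) had 1 low-level site, 348 had at least 5 and 40 had at least 10. A covered site at a level of 0.5 or more was also found in 1875 of the 3604 genes (52.0%), beside 2665 of all 4827 genes with a covered site (55.2%). In the 2113 of the 3604 genes that had at least 3 covered sites, the levels of 1 gene spanned a median of 0.635. Reads of pseudogenes and tRNA genes may come from near-identical copies, so these assignments are uncertain.

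The genes with the most low-level sites were Srrm2, Son, Cggbp1, Msh6, C77080, Neat1, Scd2 and Esrrb. Srrm2 and Son, scaffolds of nuclear speckles that act in splicing, had 26 and 21. Cggbp1, a protein that binds CGG repeats, had 18, and the mismatch repair gene Msh6 had 16. C77080 had 15, Neat1, the long noncoding RNA that builds paraspeckles, had 14, and Scd2, a fatty acid desaturase, and Esrrb, a nuclear receptor of naive pluripotency, had 13 each.

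These genes were not weakly methylated throughout. In Srrm2, 26 of 41 covered sites were low-level, with levels from 0.113 to 0.270 (chr17:24034539-24043295, build mm39), while 10 of the 41 were at 0.5 or more and the highest at 0.966. Son had 14 covered sites at 0.5 or more of 51, and C77080 had 10 of 29, the highest at 0.988. Scd2 stood at the other end, with 2 of 19 covered sites at 0.5 or more.

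**Figure D1:**
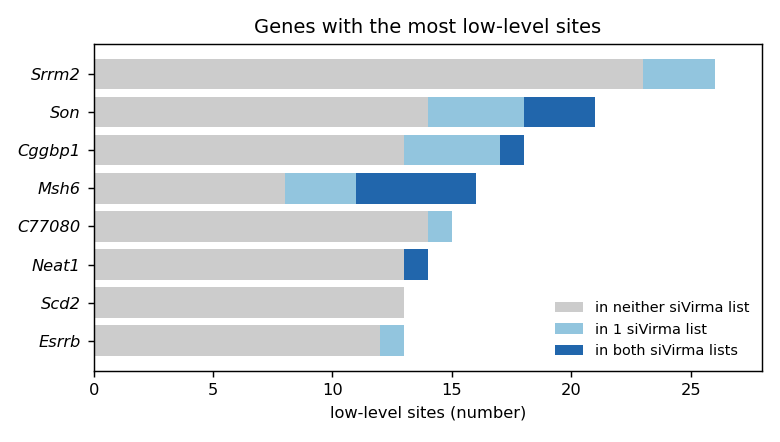
Bars give the number of low-level control sites in the 8 genes with the most of them, split by whether each site was also in neither, 1 or both of the siVirma lists. In Msh6, 5 of 16 sites were in both siVirma lists, whereas none of the 26 in Srrm2, 15 in C77080, 13 in Scd2 or 13 in Esrrb was.

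Across the gene lists, which were chosen with earlier results known, the share of covered sites that were low-level is a description beside the 43.7% over all genes. It was 68.4% in abundant housekeeping and metabolic genes (67 of 98 sites), 61.9% in nucleolar and chaperone genes (26 of 42), 57.6% in translation factors and ribosomal proteins (34 of 59), 57.1% in nuclear long noncoding RNAs (24 of 42) and 56.5% in splicing factors (100 of 177). It was 48.6% in primitive endoderm genes (36 of 74), 45.1% in chromatin regulators (41 of 91), 43.5% in FGF-ERK and Wnt genes (57 of 131), 43.5% in fibroblast markers (10 of 23), 41.0% in cell cycle and p53 genes (50 of 122) and 40.8% in naive pluripotency genes (75 of 184). The lowest shares were in 2-cell stage genes (14 of 37), m6A readers and erasers (25 of 69) and the m6A writer complex (2 of 13).

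Examples from these lists are their deepest low-level sites. Both writer complex sites were in Cbll1, the gene of the Hakai subunit, 13 nt apart, with levels that did not overlap: 0.135 and 0.127 at chr12:31537131, and 0.266 and 0.234 at chr12:31537118. In the reader gene Ythdf1 the deepest low-level site had 0.172 and 0.164, and in Hnrnpa2b1, an RNA-binding protein, 0.192 and 0.164. Cdkn1a, the p53 target that blocks the cell cycle, had a pair of deep sites at 0.263 and 0.283 and at 0.228 and 0.193. The β-catenin gene Ctnnb1 had sites at 0.252 and 0.213 and at 0.111 and 0.120, and Malat1, a nuclear speckle RNA, at 0.147 and 0.167 and at 0.193 and 0.196. In Lamc1, a laminin chain, the deeper site had 0.145 and 0.161 and another 0.295 and 0.222, so the libraries differed more at some sites than at others.

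The deepest sites gave the most precise low levels. In Eef1a1, the elongation factor that brings tRNA to the ribosome, the site at chr9:78385860 had levels of 0.1810 and 0.1811 from 11583 and 10229 A+G reads. The chaperone genes Hsp90aa1, Hsp90ab1 and Hspa8 had 0.159 and 0.160, 0.280 and 0.285, and 0.189 and 0.189. Pou5f1, the core pluripotency factor OCT4, had 0.251 and 0.244, and the pseudogene Gm10076 had 0.293 and 0.289. The smallest of these read counts was 3184. None of the 6 sites was in a siVirma list. At Eef1a1 the region was still read in siVirma: another listed site 55 nt away had 6538 and 5479 reads in the siVirma libraries, at levels of 0.198 and 0.202. For the Hsp90ab1, Pou5f1 and Hspa8 genes no site at all was listed in siVirma, so their depth there is unknown.

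After Virma knockdown, most low-level sites were no longer in the lists. Of the 8025, 1051 (13.1%) were listed in the first siVirma library and 1179 (14.7%) in the second, 463 (5.77%, 95% Wilson interval 5.28 to 6.30) in both, 1304 (16.2%) in one and 6258 (78.0%) in neither. Sites with higher siNC levels were found again far more often: 69.3% of those at 0.3 to under 0.5 were in both siVirma lists, 98.8% of those at 0.5 to under 0.7, and 99.97% of those at 0.7 or more. The lists need a level of at least 0.1 and at least 5 A reads, so a site starting nearer to 0.1 has less room to fall before it leaves them, and a missing site is not a site without m6A. Intervals of shares count each site as independent, though sites share genes, reads and libraries. Intervals of levels treat each read as independent and cover the counting error of reads only.

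**Figure D2:**
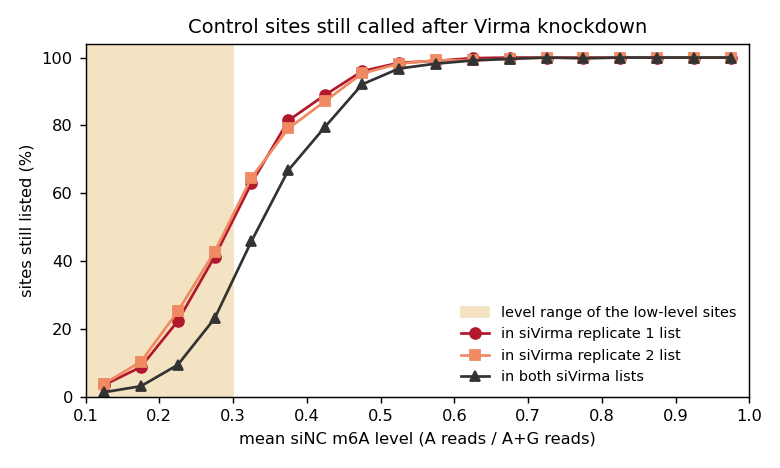
For gene-assigned sites covered by 50 or more A+G reads in both siNC libraries, the share still in each siVirma list, and in both, is plotted against the mean siNC level in steps of 0.05. The share in both lists was 1.34% from 0.10 to 0.15 and 23.1% from 0.25 to 0.30, and passed 90% only above 0.45.

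The gradient was also present within the low-level sites. The share in both siVirma lists was 1.28% at mean levels of 0.10 to 0.12, 4.53% at 0.18 to 0.20 and 32.2% at 0.28 to 0.30. The median siNC level was 0.164 for sites in neither siVirma list, 0.218 for those in one and 0.232 for those in both. By the reads of the shallower siNC library, the share in both lists was 5.79% at 50 up to 75 reads, 6.69% at 75 up to 100, 6.13% at 100 up to 200, 3.69% at 200 up to 500 and 3.70% at 500 or more. The mean share per siVirma library was 16.0% at 50 up to 75 reads and 6.48% at 500 or more. The gene conversion rate moved with the groups, from medians of 0.983 and 0.983 in siNC to 0.989 and 0.989 in siVirma over the 2943 genes measured in all 4 libraries, and its part in the loss of sites was not tested.

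Some low-level sites drop out without a knockdown, and this was measured by choosing sites in 1 siNC library only. Of 12558 sites that met the limits in the first siNC library, 77.8% were listed in the second, 13.9% in the first siVirma library and 15.4% in the second. Of 11749 sites that met them in the second siNC library, 79.7% were listed in the first, against 13.6% and 14.7% in siVirma. The loss in siVirma was thus larger than the loss between control libraries in each of these comparisons. With 2 libraries against 2, an exact permutation test cannot go below p = 0.333, so no test is given.

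Depth in siVirma could be read only where another site was listed close by. In siNC, a site within 10 nt had a median of 0.992 times the reads of the low-level site, with 0.718 to 1.29 covering the middle 90%. In the first siVirma library, 527 low-level sites had a listed site within 10 nt with at least 50 reads, and 96 of them (18.2%) were themselves listed. In the second it was 98 of 495 (19.8%). Most low-level sites at positions known to be covered were therefore also absent from the lists.

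The 463 sites in all 4 lists were mostly lower in siVirma, although the list limit keeps their levels from falling below 0.1. Over the 2 siNC libraries the median levels were 0.232 and 0.234, and over the 2 siVirma libraries 0.128 and 0.130 in siVirma, and the median site kept 57.9% of its siNC level. Both siVirma levels were below both siNC levels at 327 sites (70.6%; 94.8% over all 20414 sites tested), and both were above at 20 (4.32%; 0.715% over all). At an adjusted p under 0.05 in edgeR's quasi-likelihood fit, 246 (53.1%) were lower, where 91.6% of all tested sites were, and 2 were higher, where 0.147% of all were. Since siNC levels chose the sites and the lists cut off levels under 0.1, nothing is read from these counts. Without the first siVirma library the counts were 447 lower and 1 higher of 1179, and without the second 443 lower and 1 higher of 1051. Over all sites tested at those settings, 78.8% and 80.5% were called in either direction.

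At the low end of the kept sites, levels sat against the list limit. Trub2, a pseudouridine synthase, had levels of 0.297 and 0.272 in siNC and 0.101 and 0.101 in siVirma. Nid2, a basement membrane nidogen, had 0.293 and 0.283 against 0.102 and 0.101, and Ube2d3, a ubiquitin-conjugating enzyme, 0.242 and 0.282 against 0.1 and 0.105. Sites in the RNA-binding protein Pcbp2 (0.169 and 0.248 against 0.101 and 0.103), the apoptosis inhibitor Birc6 (0.183 and 0.235 against 0.106 and 0.1) and the RNA helicase Ddx50 (0.281 and 0.167 against 0.102 and 0.104) completed the lowest 6. In each of the 6 the groups did not overlap, and the site was chosen for its siVirma level.

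Msh6 kept more low-level sites than any other gene, with 5 in all 4 lists, and is described further for that reason, chosen after its values were seen. The sites lie between chr17:88292348 and chr17:88294259. The deepest, at chr17:88294038, had 0.267 and 0.247 in siNC and 0.136 and 0.104 in siVirma, from 243 to 359 reads. At chr17:88292348 the levels were 0.284 and 0.247 against 0.160 and 0.146. All 5 were lower in both siVirma libraries than in both siNC libraries; since siNC levels chose the sites, this is a description.

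A few low-level sites did not move down. The highest siVirma levels among kept sites with at least 50 reads were in Tra2b, Gm12136, n-TRacg6, Calu, Gm6180 and n-TRtcg4. In Tra2b, a splicing regulator, the site at chr16:22084676 had 0.250 and 0.264 in siNC and 0.355 and 0.446 in siVirma, from 83 to 110 reads, and was 1 of the 2 sites that edgeR called higher (adjusted p = 0.0059). Calu, a calcium-binding protein of the secretory pathway, had 0.231 and 0.289 against 0.268 and 0.333, and its groups overlapped. The other site called higher, seen after testing, was in Rps19, a ribosomal protein, with 0.132 and 0.137 against 0.3 and 0.235 from 34 to 53 reads (edgeR adjusted p = 0.0268). Both sites were chosen by siNC levels under 0.3 and then for high siVirma values or calls, so the calls support no rise. The Tra2b call was lost with DESeq2 (adjusted p = 0.066) and without the second siVirma library (0.096). The Rps19 call was lost with DESeq2 (0.123), without either siNC library (0.0786 and 0.0631) and without the first siVirma library (0.2).

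Sites in tRNA genes stood out after their values were seen. Of the 8, 7 were in both siVirma lists (87.5%), where 5.57% of the sites in protein-coding genes and 7.29% of those in pseudogenes were. These shares were not matched for siNC level, and the siNC means of the 8 ran from 0.148 to 0.291. Over all low-level sites the share was 32.2% at mean levels of 0.28 to 0.30. The arginine tRNA gene n-TRacg6 had levels of 0.280 and 0.273 in siNC and 0.291 and 0.311 in siVirma, from 490 to 686 reads. The arginine gene n-TRtcg4 had 0.286 and 0.296 against 0.296 and 0.299, the mitochondrial TrnW 0.270 and 0.282 against 0.271 and 0.282, and TrnP 0.195 and 0.172 against 0.176 and 0.168. TrnW was read 1549 to 3793 times in each library. TrnG had 0.210 and 0.161 against 0.197 and 0.250, n-TKttt22 0.286 and 0.237 against 0.224 and 0.315, n-TCgca56 0.217 and 0.235 against 0.163 and 0.239, and TrnK, in 1 siVirma list only, 0.144 and 0.152 against 0.136. None of the 7 sites tested passed edgeR's threshold, with adjusted p from 0.236 to 0.965. The 28 tRNA gene sites of the same depth outside the low range were all in both siVirma lists, with a median difference of 0.0102 between the groups and 9 of the 28 lower.

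**Figure D3:**
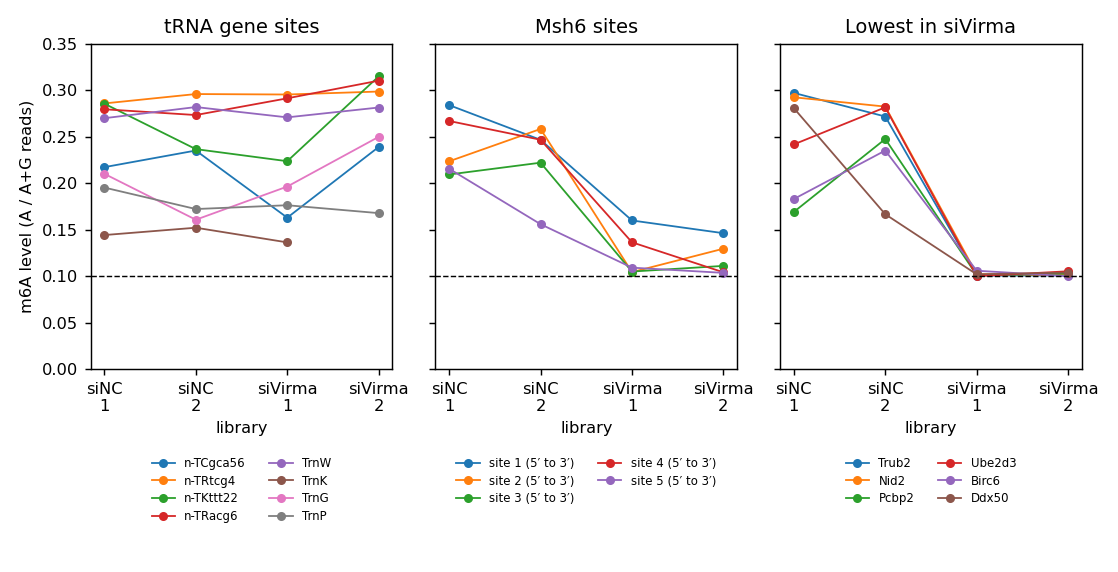
Levels (A reads over A+G reads) in the 4 TBLC libraries are shown for the 8 low-level sites in tRNA genes, the 5 Msh6 sites in all 4 lists and the 6 kept sites with the lowest siVirma levels, with a line joining the values of 1 site and a dashed line at the list limit of 0.1. The tRNA gene sites stayed between 0.136 and 0.315, while the Msh6 sites and the lowest sites dropped toward 0.1, for which the latter were chosen.

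Higher neighbours were common but not the rule. Within 50 nt on the same strand, 3602 sites (44.9%) had another site listed in both siNC libraries and 4423 had none. A neighbour at a mean level of 0.5 or more, with at least 20 reads in both libraries, was found for 1570 sites (19.6%), at a median distance of 24 nt, upstream for 794 and downstream for 776. The same kind of neighbour lay beside 23.8% of covered sites at 0.3 to under 0.5, 26.6% of those at 0.5 to under 0.7 and 28.2% of those at 0.7 or more. Where a neighbour with at least 20 reads existed, the highest one stood above the low-level site in 3079 of 3576 cases, and 1504 low-level sites had another low-level site within 50 nt. Of the sites with a high neighbour, 5.73% were in both siVirma lists and 74.3% in neither; of the 6455 without, it was 5.78% and 78.9%.

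Listed sites kept a distance of at least 4 nt with few exceptions. Within 1 to 3 nt of a low-level site 18 other listed sites were found, against 353 at 4 to 6 nt and 400 at 7 to 9 nt. The 18 touched 15 of the 8025 sites, of which 8 were in both siVirma lists, a count made after the values were seen. Around the 7508 sites of the higher level ranges the numbers were 5 at 1 to 3 nt and 410 at 4 to 6 nt. Adenosines that missed the list limits are not seen here, so the spacing is that of listed sites only.

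**Figure D4:**
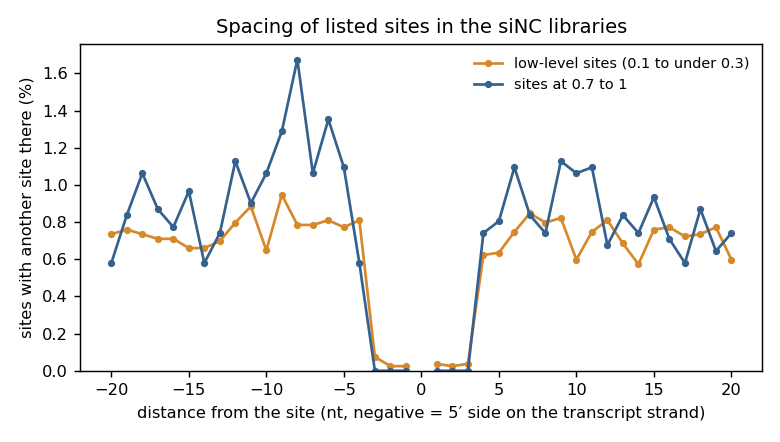
The share of sites that have another site of both siNC lists at each distance, up to 20 nt on either side along the transcript strand, is plotted for low-level sites and for sites at 0.7 to 1. Both curves are near 0 at 1 to 3 nt and rise from 4 nt on.

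The largest steps in level between close sites came from nearly fully methylated neighbours. In Nup62, a nuclear pore protein, the site at chr7:44479438 had 0.101 and 0.108, while the site 8 nt downstream had 1 and 0.976. In siVirma the neighbour was still at 0.943 and 0.963 from 194 and 164 reads, and the low-level site was in neither list. In Sox2, a core pluripotency factor, the low-level site had 0.125 and 0.133, and a site 18 nt upstream had 0.992 and 1 in siNC and 0.864 and 0.869 in siVirma. The pairs in Epm2aip1, Gm7324, Glrx and Atxn7l3b lay 27, 46, 45 and 21 nt apart, with mean siNC levels of 0.109 and 1, 0.129 and 1, 0.127 and 0.992, and 0.116 and 0.980. Glrx, a glutaredoxin, had the lowest neighbour levels in siVirma, 0.680 and 0.542. None of the 6 low-level sites was in a siVirma list.

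High neighbours were picked by their siNC level of 0.5 or more, so their fall is also a description. Of 1581 such neighbours 1557 were tested, and 1546 (99.3%) were lower in siVirma by edgeR's quasi-likelihood test, where 91.6% of all tested sites were and 95.4% of the 12639 other tested sites at 0.5 or more. The higher share beside low-level sites was not tested, and read depth was not matched. None was higher at an adjusted p under 0.05 with edgeR, limma or DESeq2, and edgeR called 0 higher at an unadjusted p under 0.05. Without the first siNC library 1 was higher. In siNC their median level was 0.756 and 0.745, and in siVirma 0.321 and 0.326, without overlap (0.750 ± 0.00739 against 0.324 ± 0.00346, SD, n = 2; exact permutation p = 0.333, two-sided, the smallest this design allows). The median neighbour kept 44.1% of its siNC level, and the other tested sites at 0.5 or more kept 46.2%; the difference was not tested.

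Gene coverage, a deposited value per gene that the rule did not use, was compared for the genes that hold low-level sites. Of 3604 genes, 2943 had a listed site in all 4 libraries and were measured. By limma on median-centred log2 values, 387 (13.1%) were lower in siVirma and 321 (10.9%) higher at an adjusted p under 0.05, beside 12.4% and 9.15% of all 6787 genes tested. The median log2 difference was -0.02 over these genes and -0.04 over all, so the genes with low-level sites were close to the background. Centring removed a shift of 0.17, higher in siVirma; without it the counts were 10 lower and 314 higher (0.340% and 10.7%, beside 0.442% and 9.46% of all genes). The calls also rested on 1 library: without the first siVirma library 4 were lower and 8 higher (0.131% and 0.262%, beside 0.140% and 0.211%). Leaving out any other library also left a single library in its group, and the counts of those fits are not given.

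In bulk RNA, fewer cells of a type and less RNA per cell cannot be told apart. Of the fibroblast markers measured, 5 of 6 were higher in siVirma and none lower, while Vim and Fn1, listed in siNC only, could not be measured. Lower were 2 of 8 pluripotency markers and 2 of 6 of the 2-cell stage. The part of these markers in the coverage differences was not tested. Of the genes with no low-level site in either siVirma list, 1682 were measured: 188 were lower and 216 higher, with a median log2 difference of -0.0067. That is 11.2% lower and 12.8% higher, beside 12.4% and 9.15% over all genes.

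Among the 8 genes with the most low-level sites, Neat1 had the largest coverage difference. Its values were 279.8 and 280.2 in siNC and 156.8 and 143.4 in siVirma, without overlap (log2 difference -1.07 ± 0.0549, SE; limma adjusted p = 0.00018), and the call held without the first siVirma library (adjusted p = 0.0359). Cggbp1 was lower, with 111.6 and 113.1 against 109.3 and 86.1 (log2 -0.38, adjusted p = 0.00894), but not without centring (0.307). C77080 was higher, with 75.4 and 72.2 against 132.0 and 99.4 (log2 0.47, adjusted p = 0.00687), as were Srrm2 (log2 0.31, adjusted p = 0.0123) and Scd2 (log2 0.24, adjusted p = 0.0205). These 4 calls were lost without the first siVirma library (limma adjusted p from 0.0602 to 0.0945), and that of Scd2 also without the second siNC library (0.112). Son, Msh6 and Esrrb did not pass, with log2 differences of -0.00045, 0.06 and -0.19 and adjusted p of 0.996, 0.418 and 0.0532.

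In EPSC, which the rule did not use, the low-level sites that were listed stood mostly at low levels. Of the 8025, 3237 (40.3%) were in the EPSC table, against 69.2%, 71.9% and 70.3% of the covered TBLC sites at 0.3 to under 0.5, 0.5 to under 0.7 and 0.7 or more. The table lists sites that pass the read and level minimums in at least 1 of its groups. With at least 20 reads in both groups, 2480 low-level sites had a median level of 0.167 in sgCtrl (10th to 90th percentile 0.0833 to 0.286) and 0.174 in sgGata6, beside 0.186 in TBLC siNC. In sgCtrl 1896 of them (76.5%) were again at 0.1 to under 0.3, and in sgGata6 2001 (80.7%). Only 2 reached 0.5 in sgCtrl and 8 in sgGata6, and 2018 (81.4%) lay within 0.1 of their siNC level. Sites under the level minimum in both groups are not listed, so these shares were partly set by the listing. The higher TBLC ranges also kept their order, with median sgCtrl levels of 0.316, 0.513 and 0.808 at 20 reads.

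The order of the sites was partly shared between the cells. Across the 808 low-level sites with at least 50 reads in both EPSC groups, the siNC mean and the sgCtrl level had a Pearson r of 0.498 and a Spearman rho of 0.503. At 20 reads they were 0.401 and 0.399 over 2480 sites. These correlations run across sites, which share libraries and genes and a narrow range fixed by the rule, and they carry no test.

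**Figure D5:**
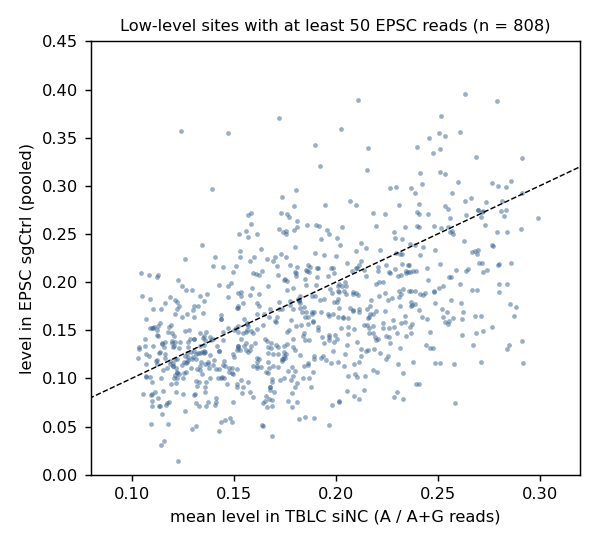
Each point is 1 of the 808 low-level sites covered by 50 or more A+G reads in both pooled EPSC groups, with its mean siNC level in TBLC on the x axis, its sgCtrl level in EPSC on the y axis and equality as a dashed line. The sgCtrl levels lie between 0.0145 and 0.395, none at 0.5 or more.

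The deepest sites stood at 0.144 to 0.335 in EPSC. The level in Eef1a1 was 0.216 in sgCtrl (95% Wilson, 0.197 to 0.237), 0.207 in sgGata6 (0.192 to 0.223) and 0.181 in both siNC libraries. Pou5f1 had 0.335 (0.297 to 0.375) and 0.318 (0.277 to 0.362), above its siNC levels of 0.251 and 0.244. Hsp90aa1 had 0.209 (0.192 to 0.228) and 0.207 (0.191 to 0.224), above its siNC mean of 0.159. Hspa8 had 0.159 (0.131 to 0.192) and 0.144 (0.116 to 0.177), with its siNC mean of 0.189 inside the sgCtrl interval and above the sgGata6 interval. Hsp90ab1 had 0.269 (0.239 to 0.301) and 0.192 (0.168 to 0.218) beside a siNC mean of 0.283, inside the first and above the second, and Gm10076 had 0.292 and 0.283 beside 0.291, inside both. At Eef1a1, Pou5f1 and Hsp90aa1 the EPSC levels were thus above the siNC levels by more than the counting error of the pooled EPSC reads, and the cells and the libraries' processing cannot be told apart there.

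The highest sgCtrl levels, among sites with at least 50 reads, were in Hint1 (0.395), the collagen chaperone Serpinh1 (0.390), the disulfide isomerase P4hb (0.388), Nudcd2 (0.372), the proteasome subunit Psmd8 (0.370) and Ndufa2 of respiratory complex I (0.359). Their sgGata6 levels ran from 0.255 to 0.333 and were lower in each. The lowest were in the histone demethylase Kdm1a (0.0145), Son (0.0312), the citrate synthase gene Cs (0.0351) and Eif3l (0.0400), with sgGata6 levels of 0.1 to 0.136, higher in each. These sites were picked as extremes of sgCtrl, and the difference from sgGata6 passed the test at none of them. A site with so low a level in sgCtrl is in the EPSC table only because sgGata6 passed the level minimum. The direction at the lowest sites was thus set by the listing.

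Hardly any site differed between the EPSC groups, whether low-level or not. Fisher's exact test on pooled reads was adjusted over 10185 sites. Of the 2480 low-level sites, 0 were lower in sgGata6 and 1 was higher (0.0403%). Over all sites, 0.255% were lower and 0.0196% higher. The test compares pooled reads and not conditions, since the table keeps no separate libraries. The 1 site was in Sfpq, a splicing and paraspeckle protein, at chr4:126926430, with 10 A of 78 reads in sgCtrl (0.128) and 34 of 84 in sgGata6 (0.405; Fisher's exact test, adjusted p = 0.0329). Its siNC levels were 0.161 and 0.1. With at least 50 reads in both groups, Ddx17, an RNA helicase, was also higher (0.124 to 0.313), and Son (0.207 to 0.0547), Hsp90ab1 (0.269 to 0.192) and Pcbp1, an RNA-binding protein (0.185 to 0.0636), were lower. With Sfpq this made 2 higher and 3 lower of 808 low-level sites. The share over all sites at 50 reads is not given here, so nothing is read from these calls. With no minimum of reads no site was higher.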

How the data were processed

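GLORI libraries were prepared from purified mRNA (labels' protocols). Coordinates are on mm39, per the submitters' processing notes, with the aligner and site caller not given in the sources used. Each deposited TBLC list gives counts of A+G and of A reads per called site, and the authors' level as a fraction, which matched A over A+G within 5e-06. By their values, listed sites have at least 15 A+G reads, 5 A reads and a level of 0.1; the deposited p-value (adjusted, up to about 0.004) was used only in an alternative with a limit of 0.0005. The lists also hold the authors' conversion rate per gene (a fraction) and gene coverage (a signal), whose meaning was taken from the column names per the file headers. The deposited EPSC table holds A counts and A+G coverage pooled per group.

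Levels were tested with edgeR 4.0.16 (quasi-likelihood, A and G counts, a term per library, group effect on A counts) over the 20414 sites in all 4 lists with at least 20 reads, and gene coverage with limma 3.58.1 on log2 values, in R 4.3.3. DESeq2 1.42.0 was an alternative. p-values were adjusted by Benjamini-Hochberg over all sites or genes, at 0.05. EPSC counts, being pooled, were tested with Fisher's exact test. Log2 odds are of A to G reads, with 0.5 added for the limma alternative. Scripts were tested on simulated data. Python 3.11.15, pandas 2.3.3, scipy 1.17.1 and matplotlib 3.10.9 were used.

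Groups came from the sample titles. Gene classes came from RefSeq tables of GRCm38.p6, by name only (3577 of 3604 genes matched); with no annotation or sequence of mm39, exons, UTRs and sequence context were not analysed here. The sites, the 14 gene lists and the rules were chosen with earlier results of these data known. Genes were named by rule: the 8 with the most low-level sites, the 6 deepest, the 6 highest and 6 lowest siVirma levels, the 6 largest steps to a neighbour, the 6 highest and 4 lowest sgCtrl levels, EPSC calls, up to 2 per list, and 3 at each limit; not all of the list examples are printed. Exceptions are stated.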

Additional observations from a re-analysis of the deposited data

How the results depend on the processing

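Of 103 alternative values, 59 stayed on their side of the threshold and within 1.5 times, 1 SD or the counting interval of the value reported, among them every count of high neighbours called lower except where the window or level itself changed. The share of low-level sites in both siVirma lists was 1.97% for limits of 0.1 to 0.2, 14.3% for 0.2 to 0.3, and 6.47% to 14.7% with 1 library left out, where fewer lists had to hold the site. At covered positions the mean share was 23.3% within 5 nt, 16.1% within 20 nt and 16.2% at 100 reads. A high neighbour was found for 8.29% of sites within 20 nt, 45.3% within 200 nt, 12.1% at a level of 0.7 and 16.8% at 50 reads. Of the neighbours tested, 643 of 648 (99.2%) were lower in siVirma within 20 nt and 4134 of 4163 (99.3%) within 200 nt. At a level of 0.7 it was 920 of 928 (99.1%), where 91.6% of all tested sites were lower. Low-level sites called lower numbered 194 to 447 and higher 1 to 4 with 1 library left out; higher calls were 0 with DESeq2 and 1 at 50 reads. Genes lower in coverage were 10 without centring and 4 to 255 with 1 library left out, and genes higher 8 to 321. In EPSC the median sgCtrl level was 0.157 at 50 reads and 0.175 with no minimum. Of 808 sites 3 were lower and 2 higher at 50 reads, where the share over all sites is not given, and 0 were higher with no minimum. With the replicate number as a block, 247 low-level sites were lower and 2 higher, and 1546 neighbours were lower. In coverage, 527 genes were then lower and 424 higher (17.9% and 14.4%, beside 19.2% and 12.3% of all genes). None of these counts changed by over 1.5 times. Of the 8 genes with the most low-level sites, Esrrb passed for coverage with the block (log2 -0.19, limma adjusted p = 0.0215). Libraries with the same number did not deviate together in level (r = 0.00844 over 20414 sites) and weakly in coverage (r = 0.138 over 6787 genes), and 2 pairs do not show a pairing. Depth limits single sites: the median counting standard error of a difference between siNC levels was 0.0547, and a level under 0.1 could not be seen in the TBLC lists.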

Other observations

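In 1157 of the 4827 genes with a covered site, every covered site was low-level, and 93 of these had at least 3 covered sites. Slc25a5, the mitochondrial ADP/ATP carrier, Rbm22, a spliceosome protein, and Mphosph10, a protein of ribosome biogenesis, had 6 each, with median siNC levels of 0.149, 0.187 and 0.242. Set, Gnai2, Serpinh1, Psmd8, Selenot, Tollip, Afdn and Mthfd1l followed with 5 each. Tollip, Afdn and Gnai2 also had 8, 4 and 1 other sites in both siNC lists under the depth limit, whose levels are not given here. Slc25a5, Mphosph10 and Mthfd1l each kept 1 site in both siVirma lists, and the others named kept none. These genes were picked by this count after the values were seen, and the siNC levels are those that chose the sites.

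Sites in all 4 lists were spread thinly over genes: 463 sites lay in 420 genes, of which 35 had at least 2 and 6 at least 3. After Msh6 with 5, these were Gm6177, Atxn7l3b, Nmt1, Tubb4b-ps1 and Son with 3 each. In the pseudogene Gm6177 all 3 low-level sites were kept; they lie within 3 nt, at chr1:160720961, chr1:160720963 and chr1:160720964, so they are read by the same reads. In Son 3 of 21 were kept. In the EPSC table, 173 of the 463 (37.4%) were listed, beside 2504 of the 6258 in neither siVirma list (40.0%).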
